A study of Mus musculus with 24 samples.

Results

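Integrins and laminins form the main link between a Schwann cell and its basal lamina. The genes described here are all integrin alpha and beta subunits and all laminin alpha, beta and gamma chains that the array names by 1 gene symbol. They were chosen by symbol alone, and the brightest probe set on average stands for each gene. The rule gave 31 genes, 21 integrin subunits and 10 laminin chains, of 12393 genes measured. No expression value entered the rule that named the genes, but the rule was set with earlier results of these data known. Itga1, Itga10, Itga11, Itgb8 and Itgad were not analysed here.

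Laminins are cross-shaped trimers of an alpha, a beta and a gamma chain. In nerve, Schwann cells deposit them as the backbone of the basal lamina, which they need in order to sort and myelinate axons. Integrins are alpha-beta heterodimers, and those with alpha 3, alpha 6 or alpha 7 bind laminins. Immature Schwann cells rely mostly on integrin alpha 6 beta 1, whereas the mature outer Schwann cell surface carries alpha 6 beta 4 beside dystroglycan.

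Sciatic nerves, stripped of the perineurial sheath, were collected from mice at P5, when myelination has begun, at P28, near its peak, and at 4 months. The 4 genotypes were WT; Chop null, which lacks the stress-response transcription factor CHOP (gene Ddit3); S63del, which carries a mutant myelin protein; and S63del/Chop null, which has both changes. Each of the 12 groups holds 2 Affymetrix arrays of total RNA, called biological replicates in the labels. The study asked which genes respond to the mutant protein and which of those responses need CHOP. Strain, sex, the number of animals behind an array and the construction of the S63del allele are not stated in the labels. All 4 genotypes were compared at each age, and the p-values measure the spread between these arrays.

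All levels below are the deposited log2 values, so a difference of 1 is a doubling, and levels of different genes cannot be compared on this array. Differences are given with the standard error (SE) of a limma fit over all 24 arrays, 2 arrays per group. A member is said to have risen or fallen where the Benjamini-Hochberg adjusted p over all 12393 genes was under 0.05.

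Ddit3 itself lay between 6.60 and 7.37 in the 12 arrays of Chop null genotypes and between 7.61 and 9.59 in the other 12, so no array went against its label. The measured Schwann cell markers were high throughout, with Mbp at 13.63 to 14.25 and Sox10 at 10.44 to 11.77. The spread of values within an array differed by age: the interquartile range was 2.90 to 3.52 at P28, against 3.77 to 3.83 at P5 and 3.86 to 3.90 at 4 months. Chop null at P28 had the widest replicate spread, a pooled SD of 0.394 against 0.123 to 0.228 in the other groups. Mean levels of the 10 skeletal muscle markers ranged from 6.42 to 11.77 between arrays, including arrays of one group. No source names a batch, so age and array processing cannot be told apart.

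The age comparison asked how the subunits change as myelination proceeds in WT nerve. Between P5 and P28, 17 of 31 members changed, 12 upward and 5 downward, where 59.5% of all genes changed (31.3% upward, 28.2% downward). The members' median difference was 0.45, against 0.079 over all genes. The chains of the Schwann cell basal lamina moved in opposite directions. The early beta chain Lamb1 and the alpha chains Lama2 and Lama4 fell, while Lamb2 and Lama5 rose. In whole nerve, fewer cells of a type and less RNA per cell cannot be told apart.

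Lamb1, the beta 1 chain of the main Schwann cell laminins, read 12.57 and 12.62 in the WT arrays at P5 and 11.21 and 11.59 at P28. It fell by 1.19 ± 0.19 on the log2 scale, a 2.29-fold drop (adjusted p = 4.94e-05). Both of its other probe sets were also lower at P28, by differences of -1.54 and -1.58. From P28 to 4 months Lamb1 differed by 0.35 ± 0.19 in WT, which was not called (adjusted p = 0.113). Over the 4 genotypes it rose by 0.32 ± 0.09 in that step (adjusted p = 0.00474). Its other probe sets then differed by 0.54 and -0.05 in WT. Lamb2, the beta 2 chain that can take the place of beta 1 in the trimer, moved opposite to Lamb1 from P5 to P28. It went from 8.60 and 8.48 to 9.60 and 9.73. That is a rise of 1.13 ± 0.15, or 2.19-fold (adjusted p = 1.39e-05), and it rose by a further 0.40 ± 0.15 to 9.93 and 10.20 at 4 months (adjusted p = 0.0351). The second step was not called after quantile normalization, where it was 0.17 (adjusted p = 0.455), or without the second 4-month replicate (0.27, adjusted p = 0.232) or either P28 replicate (0.34 and 0.46, adjusted p = 0.166 and 0.0544), or with array weights (adjusted p = 0.0871).

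Lama2, the alpha chain of the main Schwann cell laminin and the gene mutated in a congenital muscular dystrophy with neuropathy, read 11.71 in both WT arrays at P5. It read 11.04 and 10.96 at P28, a fall of 0.71 ± 0.12 (adjusted p = 0.000106). At 4 months it was 11.10 and 11.09, within 0.09 ± 0.12 of P28. Lama4, the alpha 4 chain that Schwann cells and vessels both make, fell from 11.70 and 11.65 to 11.03 and 11.10, by 0.61 ± 0.09 (adjusted p = 4.93e-05), and its second probe set differed by -2.40. Lama5, the alpha chain of many adult basement membranes, was lowest at P5. Its WT values were 6.91 and 6.94 at P5, 8.07 and 8.02 at P28, and 7.31 and 7.56 at 4 months. It rose by 1.12 ± 0.18 (adjusted p = 6.04e-05) and then fell by 0.61 ± 0.18 (adjusted p = 0.00837). The later fall was not called with the mean of its probe sets (-0.34, adjusted p = 0.0537) or without the first 4-month WT replicate (-0.49, adjusted p = 0.0827).

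Lamc1, the gamma chain shared by all of these trimers, was 11.27 and 11.44 at P5 and 11.29 and 11.64 at P28, with overlapping groups and a difference of 0.11 ± 0.13. Its second probe set differed by -0.74 over the same interval. It then fell by 0.65 ± 0.13 to 10.81 and 10.82 at 4 months (adjusted p = 0.000695). Both probe sets of Lamc1 were lower at 4 months, the second by a difference of -0.62.

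**Figure D1:**
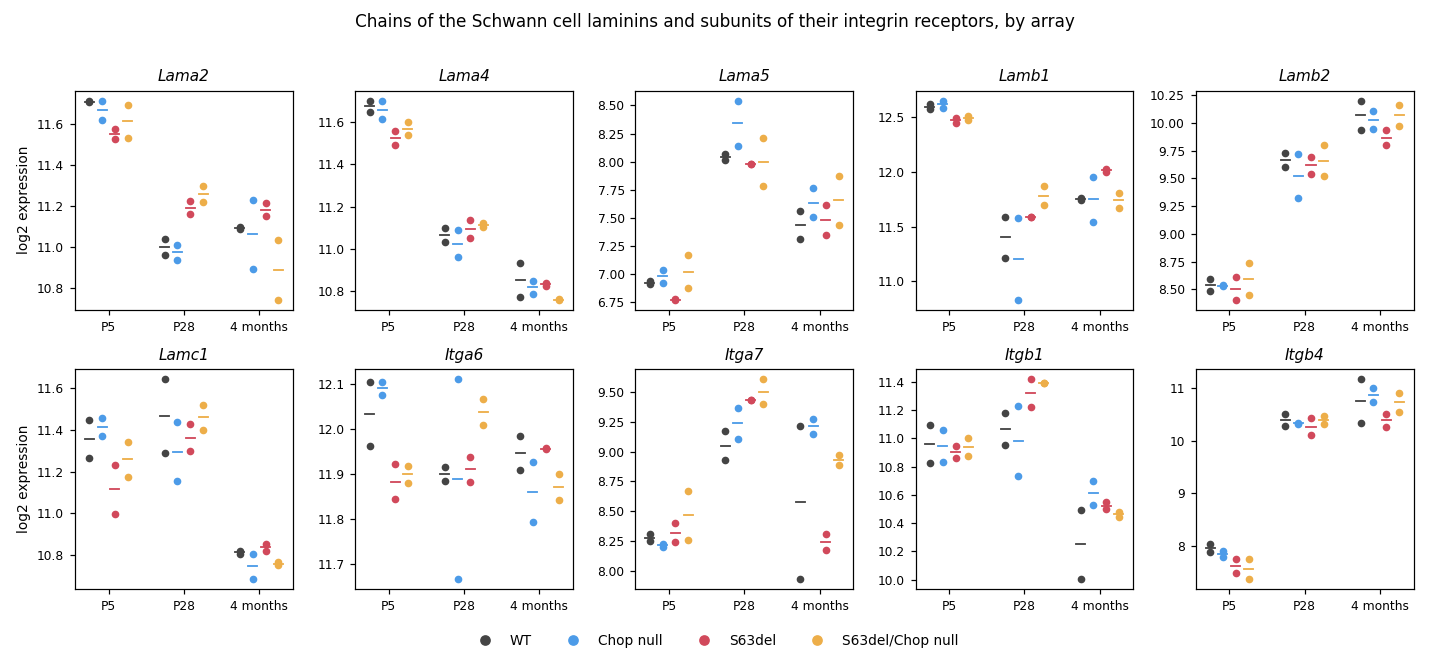
Log2 expression of 6 laminin chains of the Schwann cell basal lamina and 4 subunits of laminin-binding integrins, by age (x axis). Each point is 1 array, colours are the 4 genotypes, and short lines are group means of 2 arrays. Lamb1, Lama2 and Lama4 sit highest at P5 in every genotype and Lamb2 and Itgb4 lowest, whereas Itga6 stays between 11.67 and 12.11 in all 24 arrays. The y axes differ and do not start at 0.

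The regions just upstream of 4 members whose age changes were of opposite sign are given next, to set their sequences beside those values. RefSeq promoter windows on mouse build GRCm38.p6 matched 19 of the 31 members. The table places each window of 250 bases before a transcript start, which can lie inside the gene as annotated, so each stretch shown holds only the bases outside the gene. These number 103 for Lamb1, 205 for Lama5, 235 for Lamb2 and 250 for Itgb5. Capitals mark the GC box, a binding motif of Sp1-family factors spelled GGGCGG, or its reverse complement. The stretches are chr12:31265043-31265145 on the plus strand for Lamb1, chr2:180225905-180226109 on the minus strand for Lama5, chr9:108479612-108479846 on the plus strand for Lamb2 and chr16:33829415-33829664 on the plus strand for Itgb5.
Lamb1: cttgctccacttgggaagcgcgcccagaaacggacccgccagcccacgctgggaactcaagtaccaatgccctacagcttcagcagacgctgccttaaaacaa
Lama5: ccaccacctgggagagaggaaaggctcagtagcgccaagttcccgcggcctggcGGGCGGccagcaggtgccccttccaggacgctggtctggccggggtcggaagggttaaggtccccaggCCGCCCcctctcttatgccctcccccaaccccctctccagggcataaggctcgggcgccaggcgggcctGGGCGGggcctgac
Lamb2: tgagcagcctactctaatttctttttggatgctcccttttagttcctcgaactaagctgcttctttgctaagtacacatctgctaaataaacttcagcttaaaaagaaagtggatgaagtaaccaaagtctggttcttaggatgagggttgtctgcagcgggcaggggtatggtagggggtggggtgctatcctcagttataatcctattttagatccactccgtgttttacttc
Itgb5: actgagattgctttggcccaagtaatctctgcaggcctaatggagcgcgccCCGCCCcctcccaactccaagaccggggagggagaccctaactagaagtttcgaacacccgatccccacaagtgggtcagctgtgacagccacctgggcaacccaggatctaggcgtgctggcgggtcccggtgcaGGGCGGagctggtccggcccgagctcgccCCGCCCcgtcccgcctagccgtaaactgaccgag

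The stretch before Lamb1, which fell from P5 to P28, held 0 GC boxes at 58.3% G and C. Among the 3 subunits that rose, Lama5 had 3 GC boxes (71.7% G and C), Itgb5 had 3 (65.2%) and Lamb2 had 0 (43.0%). The stretches differ in length, so these counts are not compared. The counts and shares that follow are over whole 250-base windows, which can reach into the gene. There Lamb1 had 2 GC boxes, Lama5 4, Itgb5 3 and Lamb2 0. Lama2, which also fell, had 0 there, and its stretch is not shown because 1 base of the window lay outside the gene. A GC box on either strand occurred in 9 of 22 member windows and in 32.7% of all 32807 windows. The EGR motif GCGNGGGCG was found in 1 member window, that of Lamb1, where it overlaps a GC box; 4.7% of all windows hold it. The TATA box TATAAA was in 0 of 22 member windows and in 12.4% of all windows. The TEAD motif GGAATG was in 2 member windows (12.6% of all), and the SOX motifs ACAAAG and ACAATG were in 2 and 1 (16.5% and 10.7% of all). A match is a run of letters, not a site shown to be bound.

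Of the 4 laminin chains outside these trimers, 2 rose from P5 to P28. Lamb3, the beta chain of the epithelial anchoring laminin, read 4.05 and 4.07 in WT at P5 and 5.23 and 5.55 at P28, a rise of 1.33 ± 0.24 (adjusted p = 0.000197). Lamc3, a gamma chain of narrower distribution than gamma 1, rose by 0.80 ± 0.19, from 5.22 and 5.05 to 5.82 and 6.06 (adjusted p = 0.00164). Lama1, the alpha chain of early embryonic laminin, stayed between 3.68 and 4.31 in all 24 arrays. Lama3, the alpha chain of the epithelial anchoring laminin, varied from 4.77 to 6.19, and its WT arrays read 5.86 and 4.77 at P28, the widest values of that age.

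Among the laminin-binding integrins, 3 of 5 subunits rose in WT from P5 to P28 and 0 fell. The largest rise of any member was that of Itgb4, the beta partner of alpha 6 in the mature Schwann cell. Its WT values were 8.05 and 7.89 at P5, 10.28 and 10.51 at P28 and 10.33 and 11.16 at 4 months. The first step was 2.42 ± 0.22, a 5.36-fold rise (adjusted p = 1.87e-07), and the second was 0.35 ± 0.22 (adjusted p = 0.179), with overlapping arrays. Averaged over the 4 genotypes, Itgb4 rose by 2.59 ± 0.11 (adjusted p = 1.67e-12), and all 8 arrays at P28 lay above all 8 at P5.

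Its alpha partner was not called in either step on the probe set used. Itga6 read 11.96 and 12.11 at P5, 11.88 and 11.92 at P28 and 11.91 and 11.98 at 4 months in WT. The second Itga6 probe set disagreed, with differences of -0.99 from P5 to P28 and -0.53 from P28 to 4 months, so the level of the gene over age depends on the probe set. Itgb1, the common beta chain that pairs with alpha 6 in immature Schwann cells, read 10.82 and 11.10 at P5 and 11.18 and 10.95 at P28, a difference of 0.10 ± 0.17 with overlapping arrays. It fell by 0.81 ± 0.17 to 10.01 and 10.50 at 4 months (adjusted p = 0.000861).

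Itga7, the laminin receptor of muscle and of mature Schwann cells, rose by 0.77 ± 0.26 in WT, from 8.31 and 8.25 to 8.93 and 9.17 (adjusted p = 0.0176). That call was lost when the second P28 replicate (0.65, adjusted p = 0.102) or either P5 replicate (0.80 and 0.74, adjusted p = 0.0558 and 0.0725) was left out. Over the 4 genotypes the rise was 0.98 ± 0.13 (adjusted p = 2.4e-06), with all P28 arrays above all P5 arrays. From P28 to 4 months Itga7 fell by 0.57 ± 0.13 over the genotypes (adjusted p = 0.000778), with overlap. In WT that difference was -0.48 ± 0.26 and was not called (adjusted p = 0.125). Skeletal muscle markers averaged 8.45 and 10.44 in WT at P5, 11.30 and 10.72 at P28 and 6.42 and 7.21 at 4 months. Their part in the Itga7 age changes was not tested. Itga3, which pairs with beta 1 as a laminin receptor, rose by 0.87 ± 0.14 from 6.59 and 6.69 to 7.66 and 7.36 (adjusted p = 7.18e-05). It then fell by 0.60 ± 0.14 to 6.80 and 7.03 (adjusted p = 0.00206).

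Beyond the laminin receptors, Itgb5, the beta chain of the vitronectin receptor alpha v beta 5, had the second-largest rise in WT. It went from 8.56 and 8.42 at P5 to 10.22 and 10.06 at P28, or by 1.65 ± 0.15, a 3.13-fold rise (adjusted p = 2.72e-07). All 4 Itgb5 probe sets were higher at P28, by 1.65, 1.12, 0.80 and 0.23. The probe set used carries the suffix with which the maker marks probes that may match other transcripts. Its partner Itgav was 10.46 and 10.53 at P5 and 10.71 and 10.82 at P28, a difference of 0.27 ± 0.13 that was not called (adjusted p = 0.0884). The other 2 Itgav probe sets differed by -1.31 and 0.37 over the same interval, so no direction can be given for the gene.

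Itgb3, the beta chain of the platelet and vitronectin receptors, fell at both steps. Its WT values were 6.39 and 6.45 at P5, 6.08 and 5.57 at P28 and 5.08 and 4.85 at 4 months. The falls were 0.60 ± 0.20 (adjusted p = 0.0166) and 0.86 ± 0.20 (adjusted p = 0.00176). The first was lost without the second P28 replicate (-0.34, adjusted p = 0.208) and without either P5 replicate (-0.62 and -0.57, adjusted p = 0.0516 and 0.0726), but over the 4 genotypes it was 0.99 ± 0.10 (adjusted p = 8.41e-08), with no overlap. Itga2b, the alpha partner of beta 3 in platelets, rose by 0.47 ± 0.16 in WT from 7.44 and 6.87 to 7.70 and 7.54 (adjusted p = 0.018), and the call was lost without the second P5 replicate (0.18, adjusted p = 0.343) or the first P28 replicate (0.39, adjusted p = 0.115). Mean levels of 6 of 8 platelet markers were 6.005 to 6.43 over the arrays at P5 and 6.28 to 7.35 at P28; their part in these values was not tested.

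The fibronectin receptor subunit Itga5 rose by 0.71 ± 0.15, from 6.58 and 6.46 to 7.11 and 7.36 (adjusted p = 0.000717), and fell back by 0.80 ± 0.15 to 6.49 and 6.39 (adjusted p = 0.000359). Itga9, a receptor for tenascin-C and other matrix proteins, rose by 0.65 ± 0.17, from 7.15 and 6.97 to 7.67 and 7.74 (adjusted p = 0.00386). It read 8.62 and 7.88 at 4 months, a further rise of 0.54 ± 0.17 (adjusted p = 0.0124) that was 0.17 without the first 4-month replicate (adjusted p = 0.316), 0.51 without the first P28 replicate (adjusted p = 0.0694) and 0.27 after quantile normalization (adjusted p = 0.18). With the mean of its probe sets it was 0.23 (adjusted p = 0.0881). Itga4, which binds fibronectin and VCAM1, fell by 0.46 ± 0.17, from 6.46 and 6.14 to 5.91 and 5.76 (adjusted p = 0.0301). This call was lost without the first P5 replicate (-0.30, adjusted p = 0.245) and without either P28 replicate (-0.54 and -0.38, adjusted p = 0.052 and 0.143).

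Itga8, the receptor for nephronectin and for RGD-bearing matrix proteins, changed late. In WT it was 4.81 and 4.96 at P5, 5.46 and 4.71 at P28 and 6.47 and 6.71 at 4 months, a rise of 1.504 ± 0.40 from P28 (adjusted p = 0.00457). Without the second P28 replicate it was 1.13 (adjusted p = 0.0592). Averaged over genotypes the rise was 1.87 ± 0.20 (adjusted p = 2.68e-07), and the 8 arrays at 4 months lay above the 8 at P28. Itga2, a collagen receptor subunit, fell by 0.66 ± 0.19 from 6.005 and 5.73 at P28 to 5.26 and 5.16 at 4 months (adjusted p = 0.00751). That fall was not called after quantile normalization (-0.43, adjusted p = 0.0622) or without the first P28 replicate (-0.52, adjusted p = 0.0836). Itgb6, an epithelial subunit, stayed between 3.37 and 4.81 in all 24 arrays.

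Of the 6 leukocyte integrin subunits, 1 rose in WT from P5 to P28. Itgb7, which homes lymphocytes to mucosa, went from 6.06 and 6.27 to 7.19 and 7.38, a rise of 1.12 ± 0.16 (adjusted p = 1.83e-05). Of 11 measured lymphocyte markers (12 listed), 7 rose over the same step, with a median of 0.66, and 5 fell from P28 to 4 months, with a median of -0.40. Their part in the Itgb7 and Itgal values was not tested. Itgb2, the beta chain shared by macrophage and neutrophil integrins, read 7.19 and 7.20 at P5, 7.70 and 7.72 at P28 and 8.60 and 7.76 at 4 months. Neither Itgb2 step was called in WT (adjusted p = 0.0632 and 0.0912), but over the 4 genotypes both were, at 0.48 ± 0.11 (adjusted p = 0.00102) and 0.57 ± 0.11 (adjusted p = 0.000252). Mean levels of the 15 macrophage markers were 8.74 to 8.95 at P5, 9.23 to 9.65 at P28 and 9.11 to 9.49 at 4 months; their part in the Itgb2 values was not tested. Itgal, the alpha chain of LFA-1, fell by 0.67 ± 0.27 from 5.72 and 5.56 at P28 to 5.08 and 4.87 at 4 months (adjusted p = 0.0478). That call was lost whichever of the 4 arrays was left out (adjusted p = 0.0818 to 0.186) and after quantile normalization (-0.39, adjusted p = 0.296), and with a replicate block (adjusted p = 0.0618). The other leukocyte alpha chains, Itgae, Itgam and Itgax, were not called in WT at either step. Over all 24 arrays they ranged from 5.26 to 6.24, 4.27 to 5.70 and 4.87 to 6.74.

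From P28 to 4 months in WT, 11 of 31 members changed, 3 upward and 8 downward, where 57% of all genes changed (31.5% upward, 25.5% downward). The members' median difference was -0.25, against 0.0283 over all genes. Averaged over genotypes, 24 members changed between P5 and P28 (19 up, 5 down; 81.6% of all genes, 46.2% up and 35.4% down) and 23 between P28 and 4 months (8 up, 15 down; 78.2% of all genes, 39.8% up and 38.4% down). Their medians were 0.38 and -0.17, against 0.1158 and 0.0024 over all genes. Members called over genotypes but in neither WT step included Itgav at 0.33, Itgam at 0.38, Itgb6 at 0.34 and Itgae at 0.32 in the first interval. In the second they included Lama3 at 0.50, Itgb6 at -0.51, Itgae at -0.47 and Lama1 at -0.17, and Lama1 was at 0.09 after quantile normalization. Itgav was at -0.37 in the first interval with the mean of its probe sets. After quantile normalization Itgam was at 0.12 (adjusted p = 0.471), Itgb6 at 0.077 (adjusted p = 0.467) and Itgae at 0.18 (adjusted p = 0.083), so these calls were lost, as was that of Itgb1 with the mean of its probe sets. Itgam was also lost with array weights and without any of 3 arrays. In the second interval Itga9, Itgb4, Lamb2 and Lamc3 were lost after quantile normalization and Itgb7 with array weights. Counting both directions together, the members' shares lay near or below those over all genes in each age comparison. All 17 calls of the first WT step held after quantile normalization and under each other alternative that kept every array and tested the member. Itga4, Itgb3, Lamb3 and Lamc3 were not tested where dim genes were left out. With any array left out, 13 calls held. Of the 11 calls of the second step, 6 and 5 did so.

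**Figure D2:**
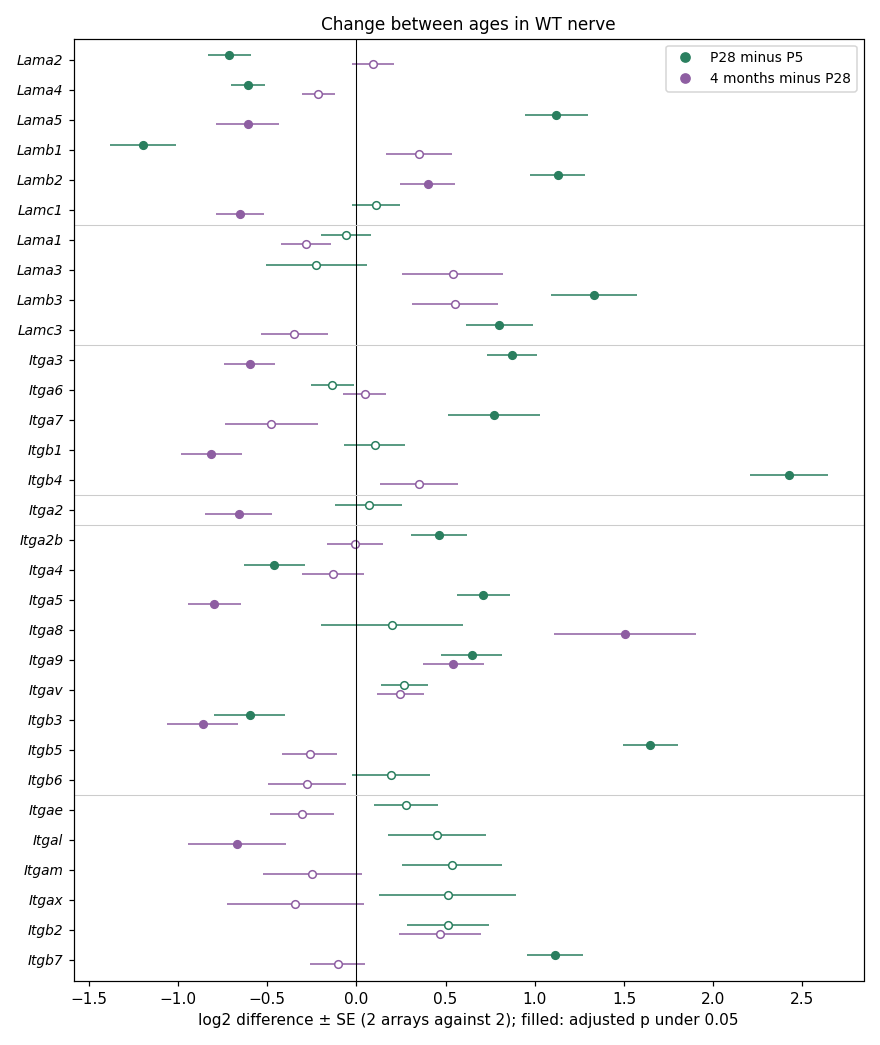
Difference in log2 expression between ages in WT nerve for the 31 members, grouped by role (x axis: P28 minus P5 in green, 4 months minus P28 in purple; bars are ± SE, 2 arrays against 2). Filled points have an adjusted p under 0.05: 17 in the first step, led by Itgb4 at 2.42, and 11 in the second, led by Itga8 at 1.504.

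Cell type markers also moved with age. Mean levels of 7 of 10 Schwann cell markers were 11.57 to 12.15 at P5 and 12.19 to 12.37 at P28. The 10 fibroblast and perineurial markers went from 10.67 to 11.05 at P5 to 11.55 to 11.83 at P28, and the 6 measured adipocyte markers (of 8) from 7.28 to 8.14 to 10.06 to 10.98. Skeletal muscle markers averaged 8.45 and 10.44 in the WT arrays at P5, 11.30 and 10.72 at P28 and 6.42 and 7.21 at 4 months. From P28 to 4 months 9 of the 10 muscle markers fell, with a median of -4.55, and from P5 to P28 0 were called by limma, with 0 at an unadjusted p under 0.05 and a median of 1.67. The part of these shifts in the members' age changes was not tested.

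Other genes of the adhesion pathway changed both ways between the same ages. Of 27 measured genes of the cytoplasmic adhesion complex (31 listed), 8 rose and 8 fell in WT from P5 to P28. Over that step 59.5% of all genes changed, and the share of each list here and below lay close to it or under it. The kinase Fyn, which signals from integrins in myelinating glia, fell by 1.33 ± 0.13 (adjusted p = 3.28e-07), and Lims2, a PINCH adaptor of integrin-linked kinase, rose by 1.83 ± 0.19 (adjusted p = 7.33e-07). Among 18 measured dystroglycan-complex and other laminin receptor genes (26 listed), 6 rose and 4 fell. Cd151, the tetraspanin that associates with laminin-binding integrins, rose by 0.99 ± 0.11, and Bcam, a receptor for the laminin alpha 5 chain, rose by 1.81 ± 0.31 (adjusted p = 0.000143).

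Of 28 measured genes for other basal lamina proteins and integrin ligands (30 listed), 9 rose and 6 fell. Col15a1, a collagen of nerve and vessel basement membranes, rose by 2.20 ± 0.17 (adjusted p = 4.38e-08), while Tnc, which encodes the alpha 9 ligand tenascin-C, fell by 2.72 ± 0.24 (adjusted p = 1.1e-07). From P28 to 4 months the same 3 lists had 10 up and 3 down, 4 up and 5 down, and 4 up and 9 down. Over that step 57% of all genes changed, and the share of each list lay below that. Sgca, a sarcoglycan of the dystroglycan complex, then fell by 1.74 ± 0.21, after a rise of 1.31 ± 0.21 between P5 and P28. Sgca is also a muscle gene, and the skeletal muscle markers differed over the same WT arrays by the medians of 1.67 and -4.55 given above; their part was not tested. Icam1, the ligand of LFA-1, rose by 1.41 ± 0.14 (adjusted p = 1.35e-06) in the later step.

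The comparison of S63del with WT asked whether the mutant protein alters these subunits. By limma, 0 of 31 members passed the threshold at P5, P28 or 4 months, where 2.4% (1.15% higher, 1.26% lower), 4.62% (3.01% higher, 1.61% lower) and 0% of all genes did. At an unadjusted p under 0.05 the counts were 1, 4 and 1. The members' median differences were -0.12, -0.10 and 0.01, against -0.0166, 0.0105 and -0.0042 over all genes. The lowest p belonged to Itgb5 at P28, which read 9.58 and 9.72 in S63del and 10.22 and 10.06 in WT. The arrays did not overlap, and the difference was -0.49 ± 0.15 (unadjusted p = 0.00577, adjusted p = 0.0792). The 95% confidence interval ran from -0.81 to -0.16.

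For the Schwann cell laminins and their receptors, the 95% intervals at P28 follow. Each is for a single gene, with no adjustment over genes. Lama2 differed by 0.19 ± 0.12 (interval -0.06 to 0.45), Lamc1 by -0.10 ± 0.13 (-0.38 to 0.18) and Itgb4 by -0.13 ± 0.22 (-0.59 to 0.33). Itga6 differed by 0.01 ± 0.12 (-0.24 to 0.26). The widest interval was that of Itga7, at 0.38 ± 0.26 (-0.17 to 0.93). Itgb1 differed by 0.26 ± 0.17 (-0.10 to 0.62) and Lamb1 by 0.19 ± 0.19 (-0.20 to 0.58). Lama5 differed by -0.06 ± 0.18 (-0.44 to 0.31), Lamb2 by -0.05 ± 0.15 (-0.37 to 0.28) and Lama4 by 0.03 ± 0.09 (-0.17 to 0.23). At 4 months the largest difference was that of Itga8, at 7.73 and 6.83 in S63del and 6.47 and 6.71 in WT, or 0.69 ± 0.40 (unadjusted p = 0.102). Lamb3 had the lowest p there, at 5.03 and 5.58 against 6.09 and 5.81, with a difference of -0.64 ± 0.24 (unadjusted p = 0.0168, adjusted p = 0.862).

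**Figure D3:**
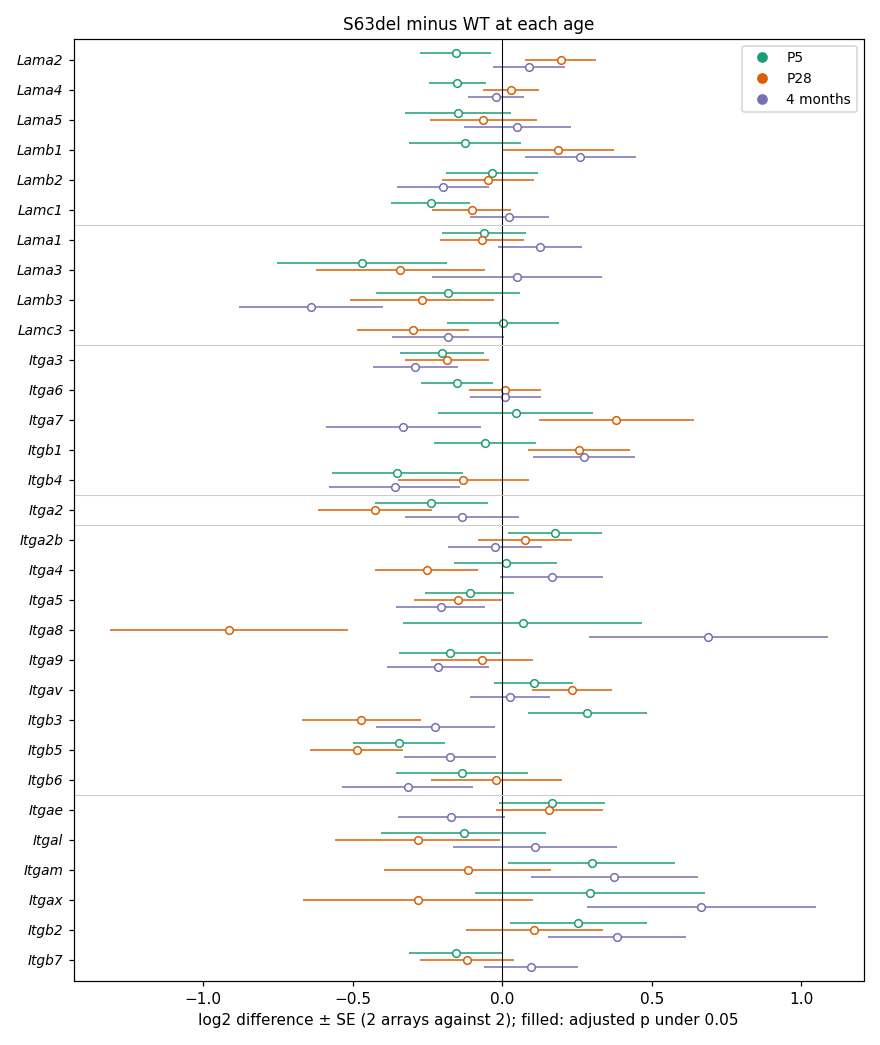
Difference in log2 expression between S63del and WT for the 31 members at P5, P28 and 4 months (x axis; points are limma estimates, bars are ± SE, 2 arrays against 2). No point is filled, since 0 members had an adjusted p under 0.05; Itgb5 lies at -0.49 at P28.

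The same mutation could be read on the CHOP-deficient background by comparing S63del/Chop null with Chop null. By limma, 0 members were called at P5 and 4 months (1.78% of all genes at P5, 0.904% higher and 0.88% lower, and 0% at 4 months; 0 members at an unadjusted p under 0.05 at either age). At P28, 1 member was called, against 17.8% of all genes (9.77% higher, 8.05% lower), and 10 had an unadjusted p under 0.05. It was Lamb1, at 11.69 and 11.87 in S63del/Chop null and 11.58 and 10.83 in Chop null, a difference of 0.58 ± 0.19 (adjusted p = 0.042). The call rested on the second Chop null replicate, without which the difference was 0.20 (adjusted p = 0.529). Leaving out the first Chop null replicate instead gave 11 called members. The call was also lost after quantile normalization (0.45, adjusted p = 0.0554) and with the mean of its probe sets (0.58, adjusted p = 0.0809). It was lost as well with array weights (adjusted p = 0.439), a replicate block (adjusted p = 0.0683) and the 8 P28 arrays alone (adjusted p = 0.275). Leaving out either S63del/Chop null replicate also lost it.

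Because these pairs are small, the 4 arrays with S63del were also set against the 4 without it at each age, a comparison added after the data were seen that uses the same arrays. At P28, 7 of 31 members were called, 4 higher and 3 lower, against 28% of all genes (16.1% higher, 11.9% lower). Leaving out the first Chop null replicate gave 13 calls and leaving out the second gave 1. The members' median was -0.11, against -0.0191 over all genes. At P5 and 4 months 0 were called by limma (5.97% of all genes at P5, 2.87% higher and 3.1% lower, and 0% at 4 months), with 1 and 2 at an unadjusted p under 0.05. Without the first WT replicate at 4 months, 1 was called there.

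Itgb5 was the clearest of the 7. The arrays with S63del read 9.58, 9.72, 9.60 and 9.80 at P28, and those without it 10.22, 10.06, 9.85 and 10.42. The groups did not overlap, and Itgb5 was lower by a log2 difference of -0.46 ± 0.11, or 1.38-fold (adjusted p = 0.00656). Of its other 3 probe sets, 2 also separated the groups, at -0.31 and -0.33, and the last differed by -0.09 with overlap. Over the alternatives run, the difference ranged from -0.61 to -0.30, and the call was lost only in a fit of the 8 P28 arrays alone (adjusted p = 0.128). At P5 the arrays with S63del read 8.17, 8.13, 8.10 and 8.08 and the others 8.56, 8.42, 8.40 and 8.41. These did not overlap either, but the difference of -0.33 ± 0.11 was not called (adjusted p = 0.0928). At 4 months the groups overlapped, with 9.70, 9.72, 9.96 and 9.77 against 9.72, 10.04, 9.79 and 9.82.

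None of the other 6 calls held with array weights or in the fit of the 8 P28 arrays alone. Itga2 was lower by a difference of -0.49 ± 0.13, at 5.39 to 5.47 against 5.62 to 6.34 (adjusted p = 0.0148), but the call was lost without the second Chop null replicate (-0.31, adjusted p = 0.0641). Lamc3 differed by -0.42 ± 0.13 (adjusted p = 0.0263), with S63del arrays at 5.31 to 5.69 and the others at 5.67 to 6.27. Lamb1 was higher by 0.38 ± 0.13 (adjusted p = 0.0396), with overlap, and Itgb1 by 0.33 ± 0.12 (adjusted p = 0.049), also with overlap. Lama2, at 11.16 to 11.30 against 10.94 to 11.04, was higher by 0.24 ± 0.08 (adjusted p = 0.0439). Itgav was higher by 0.26 ± 0.09 (adjusted p = 0.0484), but its mean over probe sets gave -0.019.

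At P28 the interquartile range of the arrays was 3.38 to 3.52 with S63del and 2.90 to 3.38 without it. After quantile normalization, which gives every array 1 distribution, 4 members were called and all 4 were lower with S63del; Itgb5, Itga2 and Lamc3 are shared with the 7. None of the 4 higher calls held. Several marker means also separated the P28 groups. With S63del, 15 macrophage markers averaged 9.43 to 9.65 against 9.23 to 9.41, and 4 of 8 erythroid markers 5.41 to 6.14 against 6.399 to 6.74. Of these 4, only Hba-a2 separated the groups, at 4.095 to 4.29 against 5.97 to 6.61, while Hba-a1, Alas2 and Slc4a1 overlapped. Adipocyte markers were 10.06 to 10.62 against 10.62 to 10.98, while Schwann cell markers overlapped, at 12.21 to 12.37 against 12.19 to 12.30. At P5 the Schwann cell markers separated the groups, at 11.57 to 11.72 with S63del and 12.07 to 12.15 without. Within that list, Egr2 and Sox10 overlapped between the groups. Other lists separated the P5 groups as well. Endothelial markers were 7.59 to 7.73 with S63del against 7.85 to 8.1. Fibroblast and perineurial markers were 10.67 to 10.79 against 10.92 to 11.05, and erythroid markers 6.03 to 6.26 against 6.45 to 7.15. Within the erythroid list Alas2 and Slc4a1 separated the P5 groups, and Hba-a1 and Hba-a2 overlapped. The mean of 9 axonal markers was higher, at 6.13 to 6.27 against 5.66 to 5.82. Within that list Uchl1, Tubb3 and Eno2 were higher in every array with S63del. Nefh and Prph were lower in every such array, and the rest overlapped. In S63del against WT, 5 of the 9 differences lay above 0, with a median of 0.04. In S63del/Chop null against Chop null 3 did, with a median of -0.09. The part of these shifts in the subunit values was not tested.

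**Figure D4:**
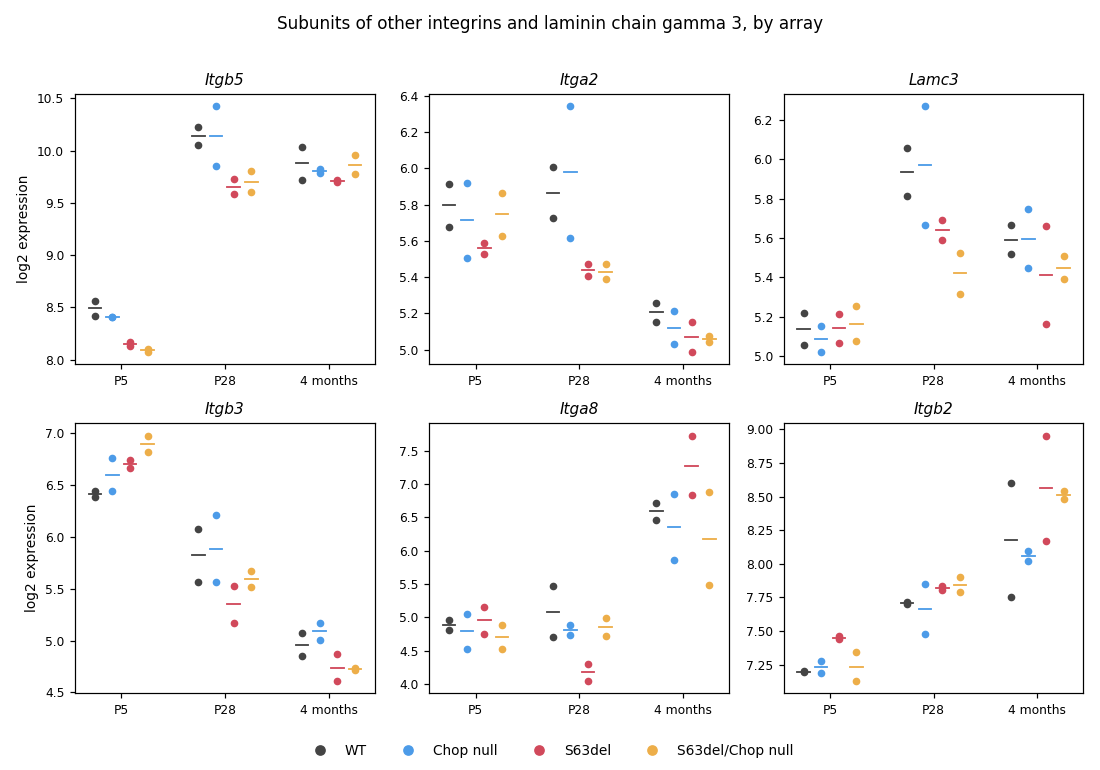
Log2 expression of Itgb5, Itga2, Lamc3, Itgb3, Itga8 and Itgb2 by age (x axis). Each point is 1 array, colours are the 4 genotypes, and short lines are group means of 2 arrays. The 4 Itgb5 arrays with S63del at P28 lie at 9.58 to 9.80, below the 4 without it at 9.85 to 10.42, and Itga8 is highest at 4 months. The y axes differ and do not start at 0.

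Whether CHOP alters these subunits was asked in mutant and in non-mutant nerve. In S63del/Chop null against S63del, 0 members were called by limma at P5, P28 and 4 months (0.0161%, 0.00807% and 0.00807% of all genes), with 0, 1 and 3 at an unadjusted p under 0.05. In Chop null against WT the counts were again 0 (0%, 0% and 0.00807% of all genes), with 0, 0 and 3. The difference between the mutation effects with and without CHOP was called for 0 members at each age (0% of all genes at each), with 0, 0 and 1 at an unadjusted p under 0.05. Combining both backgrounds, a comparison also added after the data were seen, gave 0 calls at each age (0.00807% of all genes at each), with 0, 0 and 3. Without the first Chop null replicate at P28, the P28 counts were 4 for Chop null against WT, 3 for the difference between effects and 1 for both backgrounds. Without the second WT replicate at 4 months, Chop null against WT and both backgrounds gave 2 calls each.

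Itga7 at 4 months had the lowest p for CHOP loss. It read 9.14 and 9.28 in Chop null and 8.97 and 8.88 in S63del/Chop null, against 7.94 and 9.21 in WT and 8.18 and 8.31 in S63del. The groups overlapped through 1 WT array, and the difference over both backgrounds was 0.66 ± 0.18 (unadjusted p = 0.00231, adjusted p = 0.592). Itga7 lies 1.64 Mb from Ddit3 on chromosome 10 in GRCm38.p6; whether linked alleles differ between the lines was not tested. Skeletal muscle markers, which share a tissue with Itga7, averaged 8.21, 10.53, 9.94 and 9.45 in those 4 Chop null genotype arrays and 6.42, 7.21, 9.88 and 7.49 in the other 4. Their part in the result was not tested either.

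Itga8 at 4 months went the other way. It was 7.73 and 6.83 in S63del against 5.49 and 6.87 in S63del/Chop null, a difference of -1.10 ± 0.40 with overlapping arrays (unadjusted p = 0.0136, adjusted p = 0.999). Lama2 in the same comparison was 10.74 and 11.03 in S63del/Chop null and 11.15 and 11.21 in S63del, -0.30 ± 0.12 without overlap (unadjusted p = 0.025, adjusted p = 0.999). Neither held up against the adjustment over all genes.

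The effect of S63del was also compared between ages. By limma, 0 members were called for P28 against P5 (0.476% of all genes) and 0 for 4 months against P28 (0.169%), with 1 at an unadjusted p under 0.05 in each. Without the first WT replicate at 4 months, 1 member was called in the second. With every array kept, the member at an unadjusted p under 0.05 in the first comparison was Itgb3. Its S63del difference was 0.28 at P5 and -0.47 at P28 (adjusted p = 0.423). In the second comparison, again with every array kept, that member was Itga8, with -0.91 at P28 and 0.69 at 4 months (adjusted p = 0.466).

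Of the 18 laminin receptor genes, 3 were called in S63del against WT at P5 (2.4% of all genes) and 0 at P28 and 4 months by limma, with 1 and 0 at an unadjusted p under 0.05. At P5, Cd9, a tetraspanin that associates with integrins, fell by 0.55 ± 0.09 in S63del (adjusted p = 0.0022) and by 0.62 ± 0.09 in S63del/Chop null against Chop null (adjusted p = 0.001). Utrn, the cytoskeletal anchor of dystroglycan in Schwann cells, fell by 0.69 ± 0.13 (adjusted p = 0.00656) and by 0.61 ± 0.13 (adjusted p = 0.0191). Cd151 rose by 0.55 ± 0.11 (adjusted p = 0.0087) and by 0.54 ± 0.11 (adjusted p = 0.0121). These were the only 3 of the 18 laminin receptor genes called at P5 in either comparison.

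Of the 28 ligand genes, 1 was called in S63del at P5, where 2.4% of all genes were. Vtn, which encodes the alpha v beta 5 ligand vitronectin, fell by 0.63 ± 0.12 in S63del at P5 (adjusted p = 0.00767). At P28, 2 of 28 ligand genes (7.14%, against 4.62% of all genes) rose in S63del: Thbs2, an integrin-binding matrix protein, by 0.53 ± 0.14 (adjusted p = 0.0367) and Col18a1, a basement membrane collagen, by 0.80 ± 0.22 (adjusted p = 0.0485). Both also rose in S63del/Chop null against Chop null, by 0.64 ± 0.14 and 1.01 ± 0.22. There 5 ligand genes rose and 1 fell (21.4%, against 17.8% of all genes), with Icam1 at 0.68 ± 0.14 (adjusted p = 0.00499) and Tnc at 0.93 ± 0.24 (adjusted p = 0.0165). Of the 27 adhesion complex genes, limma called 0 in S63del against WT at P5, P28 or 4 months, with 1, 5 and 1 at an unadjusted p under 0.05.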

How the data were processed

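The 24 deposited arrays hold log2 values for 22690 probe sets, 2.46 to 14.31, with array medians of 6.84 to 7.03. The scale was read from the values as deposited; the labels name no background correction, normalization or software. Per the labels' protocols, total RNA was labelled as biotin cRNA. No array reports a depth, so the number of arrays limits the precision. Probe sets were named from the platform annotation: 20380 had 1 gene symbol, 691 several and 1555 none, and 64 were controls. Where several probe sets shared a symbol (4956 genes), the brightest on average was kept, leaving 12393 genes. Of the members, 14 have several probe sets, and 13 have means below the 40th percentile of gene means (6.63).

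limma 3.58.1 (R 4.3.3) fitted 12 group means to all genes, with 12 residual degrees of freedom. It gave 27 comparisons, 6 of them chosen after seeing the data, with moderated tests and Benjamini-Hochberg adjustment over all genes (threshold 0.05). Every p in the text comes from this limma fit or its alternatives. In data simulated for S63del against WT at P28 (12393 genes), 82.3% of changes of 1 on the log2 scale and 99.7% of changes of 2 were recovered, and 5.7% of calls were false. Smaller changes were not simulated, and the members' differences in that comparison ran from -0.91 to 0.38, so recovery at their size is not given. The simulated noise was normal with 1 spread per gene for all groups, whereas the replicate spread differed between groups. The alternatives were quantile normalization, the mean of probe sets, leaving out dim genes, array weights, a replicate block, the arrays of 1 age alone, and leaving out arrays. The members, roles and gene lists were chosen with earlier results of these data known. By rule, values are given for members called in any comparison and for Schwann cell laminins and their receptors, and for up to 4 called genes of lowest p per pathway list.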

Additional observations from a re-analysis of the deposited data

How the results depend on the processing

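Over 27 comparisons and 183 alternative counts of called members, 160 stayed within 1.5 times the value reported. In most of these comparisons 0 members were called, and a count that stayed at 0 is among the 160. For S63del against WT, where 0 were called, array weights gave 1 at P5 and 1 at P28, the 8 arrays of the age alone gave 1 at P5, and leaving out the second Chop null replicate at P28 and the first WT replicate at 4 months together (chosen after seeing the data) gave 1 at P28 and 1 at 4 months. For S63del/Chop null against Chop null, array weights gave 1 at P5. With the mean of probe sets, the members called at P28 were lower and did not include Lamb1. At P28, where 1 was called, the mean of probe sets and leaving out dim genes gave 2 each, and quantile normalization, array weights, the 8 arrays alone and the omission of both arrays gave 0 each. For the mutation on both backgrounds, array weights and the 8 arrays alone gave 3 each at P5 and the omission of both arrays 1. At P28, where 7 were called, quantile normalization gave 4, array weights 1, the 8 arrays alone 0 and the omission 2. At 4 months the omission gave 2. It also gave 1 for the change in the S63del effect from P28 to 4 months. From P28 to 4 months over all genotypes, 13 were called among the 18 members left without dim genes, against 23 of 31; fewer members were tested there. The causes of the other shifts were not tested. Directions turned for Itgav with the mean of its probe sets (-0.37 for P28 against P5 over genotypes, -0.019 for the mutation at P28) and for Lama1 from P28 to 4 months after quantile normalization (0.091).

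Leaving out 1 array at a time gave 0 to 11 calls for S63del/Chop null against Chop null at P28, 0 to 4 and 0 to 2 for Chop null against WT at P28 and 4 months, 0 to 3 for the difference between effects at P28, 0 to 1 for the S63del effect from P28 to 4 months, 1 to 13 and 0 to 1 for the mutation on both backgrounds at P28 and 4 months, and 0 to 1 and 0 to 2 for CHOP loss on both backgrounds at P28 and 4 months. The age comparisons gave 14 to 16 and 8 to 13 in WT, and 23 to 25 and 21 to 23 over genotypes. All other comparisons stayed at 0.

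Replicate numbers are shared between groups, but same-numbered arrays did not deviate together (r from -0.477 to 0.349 over 18 pairs), so the numbers were not taken as a pairing. With the replicate number as a block, 18 and 10 members were called in the WT age steps, 24 and 22 over genotypes, 1 for S63del/Chop null against Chop null at P28 (not Lamb1, adjusted p = 0.0683 by limma) and 4 for the mutation at P28, with 0 in all other comparisons. Array signals limit the dim members: 4 have means below the 20th percentile of genes.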
